A study of Mus musculus with 12 samples.

Results

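The 10 genes that earlier work on these libraries had set apart as higher in the sensory ganglia of Q84 mice are 10 of the 35583 genes with a listed transcript. They were Nell1, Gprasp2, Grxcr2, Olfm3, Vwde, Ptpro, Mstn, Marcks, Bicc1 and Cped1. They were named with their difference between Q84 and wild-type (WT) libraries already known, so their levels and fold changes for that difference are given as a description, with no test. All 10 passed the filter on low counts. The tissue was the dorsal root ganglion, where the cell bodies of sensory neurons lie along the spinal cord. The mice were 24 weeks old, and poly(A) RNA was sequenced. Q84 mice carry a yeast artificial chromosome (YAC) that holds human ATXN3 with its own regulatory sequences. The expanded CAG repeat of this transgene encodes the long polyglutamine tract of spinocerebellar ataxia type 3. The Q84 group had 1 male and 5 female libraries, and the WT group had 3 male and 3 female libraries. The labels give neither the copy number of the transgene nor the strain. Separate animals are not stated either, and p-values therefore cover the spread between these libraries, which may be technical. With 1 Q84 male, a genotype difference within males rests on that library.

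The 10 genes do not form a single pathway. Nell1 and Mstn encode secreted signals, Olfm3 and Vwde encode secreted proteins with matrix-type domains, and Ptpro encodes a receptor-type phosphatase at the cell surface. Gprasp2, Marcks, Grxcr2 and Bicc1 act inside the cell in receptor sorting, membrane and actin dynamics, stereocilia building and mRNA regulation. A dorsal root ganglion holds neurons wrapped by satellite glia, axons wrapped by Schwann cells, vessels and a connective tissue sheath, and its RNA is a mixture of all of these. In such bulk RNA, a gene's level cannot be split into more cells of a type and more RNA per cell.

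Estimated counts per library summed to between 66490481 and 86891563. The genotype labels were compared with the Atxn3 transcript ENSMUST00000161011.8, 1000 bases long, to which reads of the human transgene can be assigned. It was at 62.7 to 79.4 TPM (a level scaled to transcript length and library total) in Q84 male 1 and Q84 females 1 to 4, and at 0.29 TPM or less in 5 of the 6 WT libraries. It was at 0.06 TPM in the library labelled Q84 female 5 and at 34.0 TPM in that labelled WT female 2. Both went against their label and are called the doubted libraries here, so levels and counts are given with all 12 libraries as labelled and with the 10 left without them. Neuronal markers were abundant in every library, as summed TPM of 10 genes led by Uchl1 was 5886 to 7285 in Q84 and 6470 to 8984 in WT. Of these 10 genes, 2 fell and 8 did not pass in the 10 libraries, and 4.93% of all genes tested fell. Pou4f1, a transcription factor gene of sensory neurons, fell (log2 fold change -0.78, edgeR adjusted p = 0.0123), a call lost without Q84 male 1 or WT female 3. Nefl, a neurofilament gene, fell (-0.50, edgeR adjusted p = 0.0442), a call lost in 8 of the 10 fits that drop a library (adjusted p up to 0.230). Satellite glia markers, led by Apoe, summed to 2745 to 3905 TPM in Q84 and 3230 to 4180 TPM in WT, and Schwann cell markers, led by Pmp22, to 1817 to 3631 TPM in Q84 and 2259 to 3409 TPM in WT. Macrophage markers, led by C1qa, summed to 42.9 to 99.2 TPM in Q84 and 45.8 to 97.4 TPM in WT, and red blood cell markers, led by Hbb-bs, to 889 to 6785 TPM in Q84 and 596 to 3440 TPM in WT. In the 10 libraries that red blood cell sum was 1594 to 6785 TPM in Q84 and 596 to 3440 TPM in WT, and the median log2 fold change of the 6 markers was 1.28. None of the 6 passed (edgeR), all 6 had an unadjusted p under 0.05, DESeq2 called 2 and limma-voom 1. The part of red blood cell RNA in the levels of the 10 genes was not tested. No gene on the 9 lists of cell type markers was at 0 in every library.

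In the 10 libraries, every Q84 library lay above every WT library for 9 of the 10 genes, all but Mstn, whereas 2.71% of all 18721 genes tested had that order. With all 12 libraries it was 4 of 10 (Ptpro, Marcks, Bicc1 and Cped1), against 0.413% of 18875 genes. The genes were chosen on this contrast, and nothing is read from these counts. The fold of mean CPM (counts scaled to the library total with TMM factors) of Q84 over WT in the 10 libraries ran from 1.45 for Bicc1 to 4.51 for Nell1, with a median of 2.19. Among the 285 genes called higher in Q84 in those libraries, 1.52% of all genes tested, the fitted fold change of Nell1 stood at position 32 and that of Bicc1 at 181, so none of the 10 had the largest change. The median log2 fold change over all genes was 0.01.

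**Figure D1:**
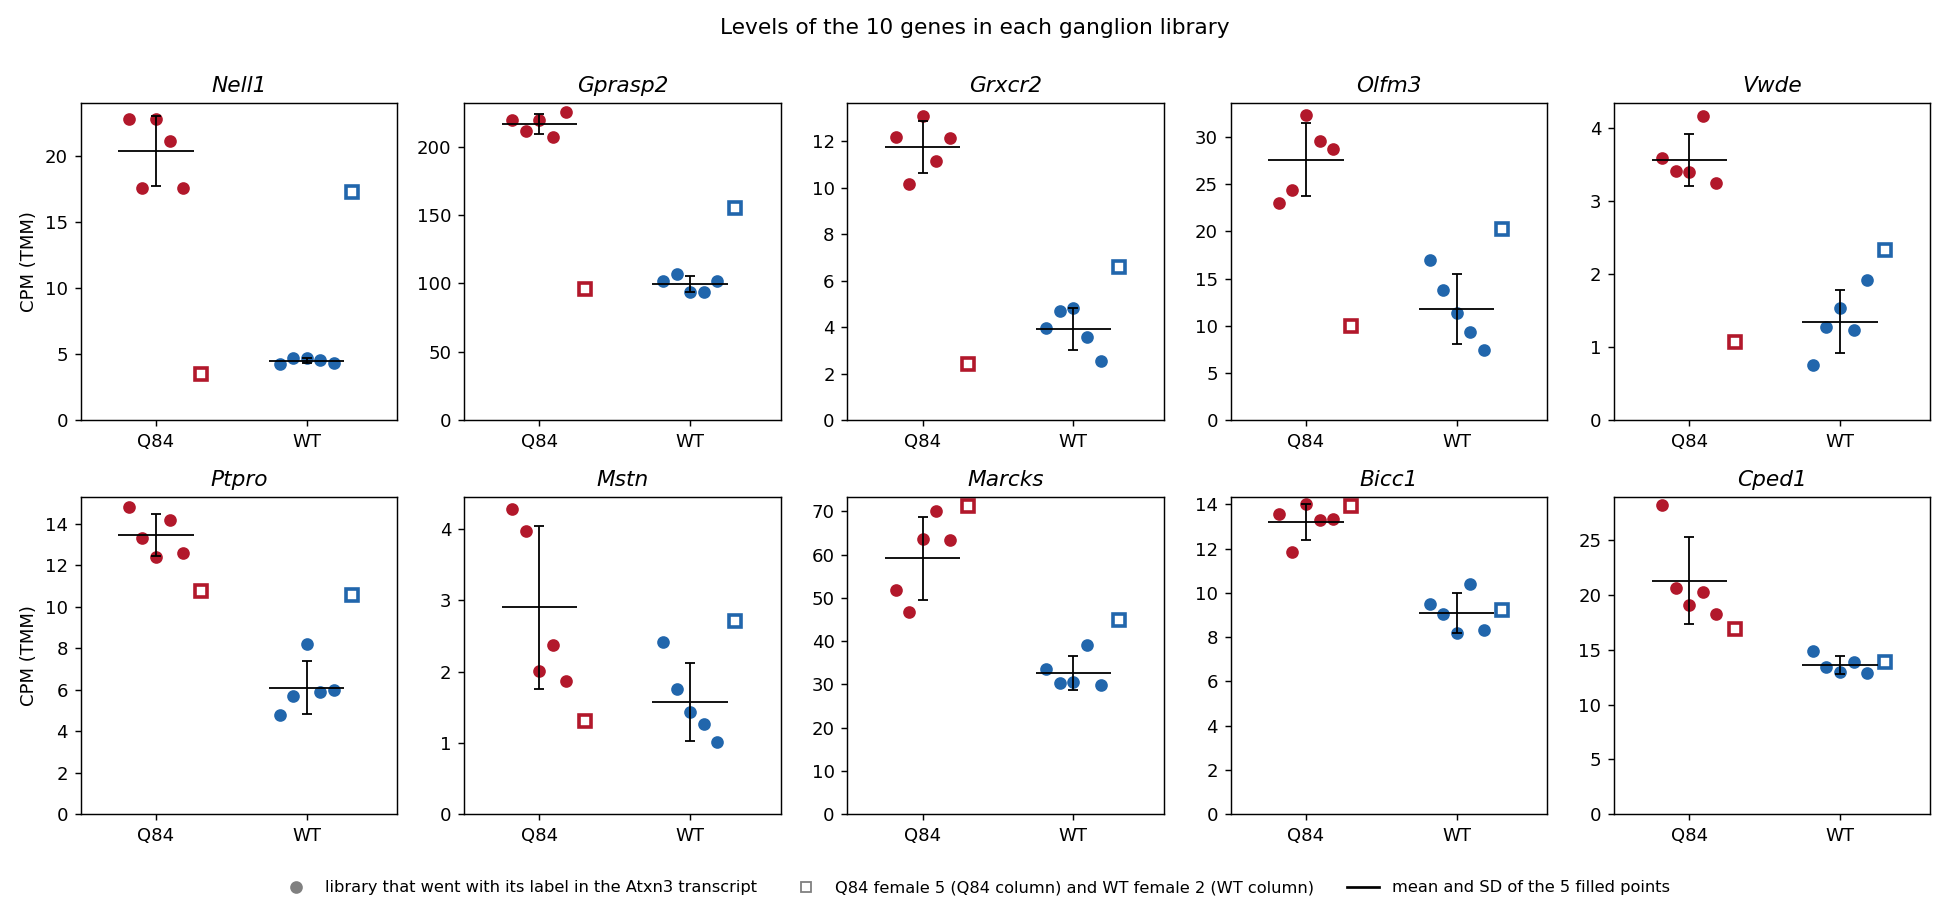
Levels of the 10 genes in CPM (TMM-scaled; each panel starts at 0), with Q84 libraries on the left and WT libraries on the right of each panel. Filled points are the 5 libraries of each group that went with their label in the Atxn3 transcript, the bars are their mean and SD, and open squares are Q84 female 5 and WT female 2. The open squares of Nell1 sit at 3.48 CPM in the Q84 column and 17.2 CPM in the WT column.

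Per unit of transcript length, Gprasp2 was the most abundant of the 10, at 93.9 ± 10.4 TPM in Q84 and 46.4 ± 3.09 TPM in WT (SD, n = 5 each, as for all means of the 10 libraries). Marcks followed at 20.6 ± 2.56 TPM in Q84 and 11.9 ± 1.30 TPM in WT. In Q84 libraries Olfm3 (9.14 ± 1.08 TPM), Grxcr2 (8.95 ± 1.19 TPM) and Nell1 (8.80 ± 1.22 TPM) lay within their spread of each other. Ptpro (6.02 ± 0.835 TPM) and Cped1 (5.46 ± 1.29 TPM) came next and also overlapped, and Bicc1 stood at 3.55 ± 0.352 TPM. In WT libraries Nell1 lay below Bicc1 in this order, at 2.03 ± 0.255 TPM against 2.54 ± 0.207 TPM. Mstn and Vwde were the lowest, with 1.59 ± 0.702 and 0.908 ± 0.0863 TPM in Q84, and 0.881 ± 0.283 and 0.376 ± 0.115 TPM in WT.

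Nell1 (ENSMUSG00000055409, chromosome 7) encodes a secreted protein with EGF-like repeats that binds protein kinase C and is known for promoting bone formation. It had 22.8 CPM in Q84 male 1 and 17.5, 22.8, 21.1 and 17.6 CPM in Q84 females 1 to 4, and 3.48 CPM in Q84 female 5. WT males 1 to 3 had 4.25, 4.70 and 4.72 CPM, WT females 1 and 3 had 4.54 and 4.36 CPM, and WT female 2 had 17.2 CPM. The groups of 5 were far apart, the library labelled Q84 female 5 was below every WT library, and the library labelled WT female 2 was just under the lowest of the 5 Q84 libraries. The log2 fold change, Q84 over WT, was 2.21 (SE 0.11) in the 10 libraries and 1.35 (SE 0.50) in the 12. The WT libraries varied little, with a coefficient of variation of 4.66% over the 5, against 13.0% over the 5 Q84 libraries.

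Of the 5 listed Nell1 transcripts, ENSMUST00000107603.2 (2756 bases) carried most of the level. It had 8.86 TPM in Q84 male 1, 6.73, 7.96, 7.14 and 6.57 TPM in Q84 females 1 to 4 and 1.29 TPM in Q84 female 5. In WT it had 1.33, 1.94 and 1.83 TPM in males 1 to 3, 1.82 and 1.5 TPM in females 1 and 3, and 6.98 TPM in female 2. Its share of all Nell1 TPM was 84.7 ± 1.16% in Q84 and 82.7 ± 3.09% in WT. The longer ENSMUST00000081872.13 (6617 bases) was higher by a like factor, at 1.32 ± 0.31 TPM in Q84 and 0.31 ± 0.05 TPM in WT, or 4.27-fold against 4.42-fold for the shorter one. Both transcripts thus kept their proportions while the sum differed. Of the 31-base words of the Nell1 transcripts in GENCODE M21, 0.989% also occur in another gene.

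**Figure D2:**
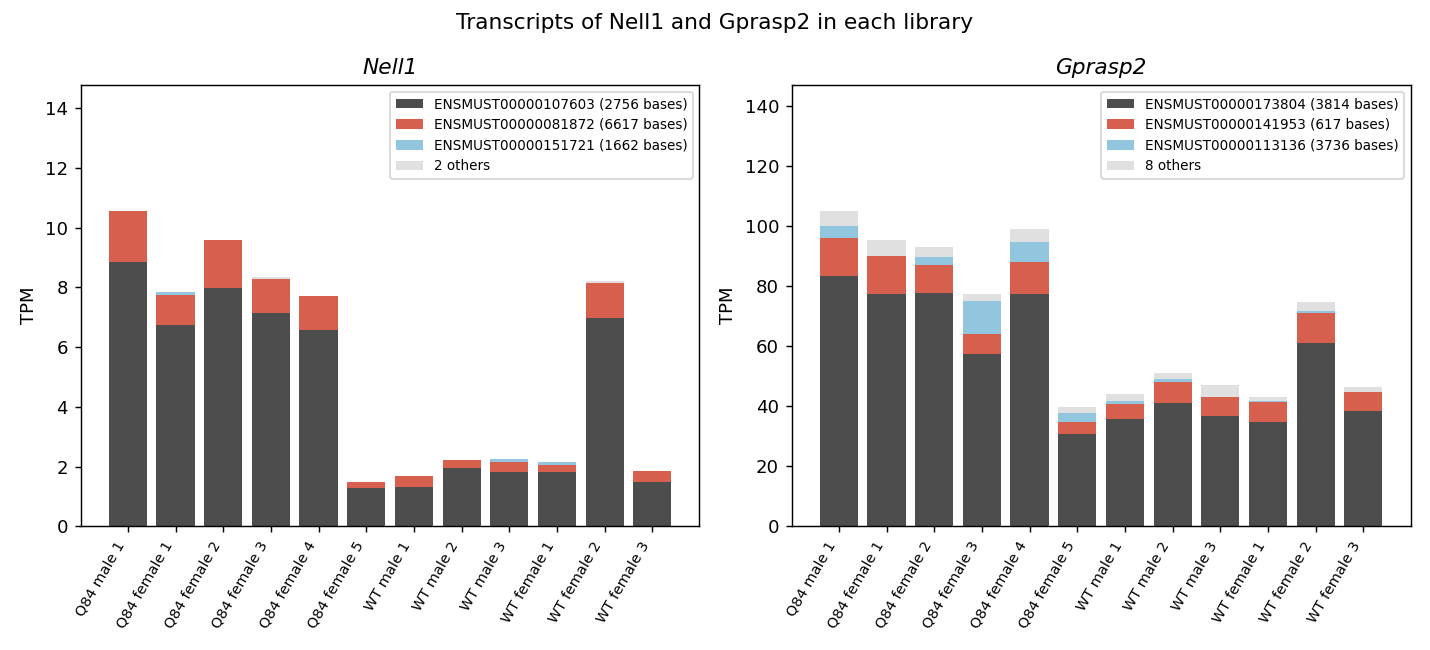
Deposited TPM of the transcripts of Nell1 (left) and Gprasp2 (right) in each library, stacked, with the 6 libraries labelled Q84 on the left of each panel and the 6 labelled WT on the right. The same transcript forms most of every bar: ENSMUST00000107603 for Nell1 and ENSMUST00000173804 for Gprasp2.

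The promoters of Nell1 and Gprasp2 are shown because these are the 2 genes whose transcripts and nearest profiles are described, and that of Mstn because its groups overlapped in the 10 libraries. Each runs from 250 bases before to 50 bases after the gene's start in RefSeq on GRCm38.p6, all on the plus strand. Nell1 is at chr7:49975100-49975399, Gprasp2 at chrX:135838784-135839083 and Mstn at chr1:53061390-53061689. Capitals mark 4 motifs, searched on both strands. The GC box, known to be bound by Sp1 and its relatives, was searched as GGGCGG. The site known for binding the trimeric factor NF-Y was searched as CCAAT. The element bound by the general factor TBP in many tightly regulated genes was searched as TATAAA. The E-box, known for binding helix-loop-helix factors such as those of muscle, was searched as CANNTG.
Nell1: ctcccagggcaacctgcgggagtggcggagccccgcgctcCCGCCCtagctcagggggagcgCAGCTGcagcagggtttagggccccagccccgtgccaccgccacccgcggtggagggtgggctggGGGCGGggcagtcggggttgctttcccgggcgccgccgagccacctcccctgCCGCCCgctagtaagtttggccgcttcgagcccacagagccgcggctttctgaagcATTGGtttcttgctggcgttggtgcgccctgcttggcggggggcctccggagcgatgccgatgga
Gprasp2: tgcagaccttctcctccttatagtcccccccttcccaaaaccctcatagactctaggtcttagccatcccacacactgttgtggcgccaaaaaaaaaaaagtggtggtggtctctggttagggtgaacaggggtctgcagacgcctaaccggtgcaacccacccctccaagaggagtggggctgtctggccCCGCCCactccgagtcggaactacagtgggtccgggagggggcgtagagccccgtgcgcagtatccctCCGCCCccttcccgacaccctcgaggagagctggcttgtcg
Mstn: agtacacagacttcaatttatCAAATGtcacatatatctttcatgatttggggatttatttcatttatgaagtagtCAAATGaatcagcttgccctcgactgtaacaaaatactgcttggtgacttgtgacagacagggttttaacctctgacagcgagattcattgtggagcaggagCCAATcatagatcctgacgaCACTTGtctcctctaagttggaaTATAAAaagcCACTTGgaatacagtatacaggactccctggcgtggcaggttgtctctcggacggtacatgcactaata
Nell1 holds 3 GC boxes, 1 CCAAT box and 1 E-box in this window, with 72.3% G and C, and Gprasp2 holds 2 GC boxes and none of the other marked motifs, with 60.7% G and C. Mstn holds 4 E-boxes, 1 CCAAT box, 1 TATA box and no GC box, with 41.3% G and C. It also holds 1 AP-1 site, searched as TGANTCA and found in 7.81% of all promoters, which overlaps the second E-box and is not marked. Over 32851 listed promoters the median was 52.7% G and C, and 35.7% held a GC box, 37.4% a CCAAT box, 13.6% a TATA box and 72.3% an E-box. These matches are descriptions of the letters. Promoter entries were matched for 7 of the 10 genes.

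The genes whose profile over the 12 libraries was nearest to that of Nell1 (root mean square difference of centred log2 CPM, among 13588 genes with a mean of 1 CPM or more) were Grxcr2 (0.39), Sema3a (0.44), Olfm3 (0.53), Vwde (0.53) and Gprasp2 (0.53). The median over all genes compared was 1.06. Of these 5, 4 are among the 10 genes chosen for a shared difference, so the order describes these libraries. Sema3a, which encodes a secreted axon repellent and was not among the 10, had 2.19 ± 0.33 CPM in Q84 and 0.45 ± 0.14 CPM in WT. It was at 0.51 CPM in Q84 female 5 and 1.2 CPM in WT female 2.

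Among genes linked to Nell1 by family or binding, 1 of 8 tested rose, none fell and 7 did not pass (edgeR quasi-likelihood test, 10 libraries), and 6.45% of all genes were called in either direction. Cntnap4, which encodes a neurexin-like surface protein reported to bind Nell1, had 72.5 ± 6.67 CPM in Q84 and 53.3 ± 5.25 CPM in WT. Its log2 fold change was 0.47 (SE 0.10, edgeR adjusted p = 0.0125), and the call was lost without Q84 male 1 (0.36, adjusted p = 0.131). The library labelled WT female 2 had 93.5 CPM, above all 5 Q84 libraries, and Q84 female 5 had 50.4 CPM. Nell2, the closest relative of Nell1, had 11.2 ± 1.93 CPM in Q84 and 12.4 ± 3.33 CPM in WT, with overlapping groups (log2 fold change -0.05, SE 0.19, edgeR adjusted p = 0.933).

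Gprasp2 (ENSMUSG00000072966, chromosome X) encodes a protein that binds G protein-coupled receptors and takes part in their sorting after endocytosis. It had 219.5 CPM in Q84 male 1, 211, 219.6, 207 and 225 CPM in Q84 females 1 to 4 and 95.8 CPM in Q84 female 5. In WT it had 102, 107 and 93.7 CPM in males 1 to 3, 93.4 and 102 CPM in females 1 and 3 and 155 CPM in female 2. The 5 Q84 libraries formed a tight band well above the WT band, Q84 female 5 lay within the WT range, and WT female 2 stood midway. The log2 fold change was 1.14 (SE 0.07) in the 10 libraries and 0.83 (SE 0.21) in the 12. The coefficient of variation within groups was 3.40% in Q84 and 5.77% in WT, the lowest within Q84 of the 10 genes.

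Of 11 listed Gprasp2 transcripts, ENSMUST00000173804.8 (3814 bases) made up 79.4 ± 3.42% of the gene's TPM in Q84 and 80.3 ± 1.75% in WT. It had 83.4 TPM in Q84 male 1, 77.4, 77.7, 57.4 and 77.5 TPM in Q84 females 1 to 4 and 30.6 TPM in Q84 female 5. In WT it had 35.6, 40.9 and 36.6 TPM in males 1 to 3, 34.8 and 38.3 TPM in females 1 and 3, and 61.1 TPM in female 2. The lowest of the 5 Q84 libraries, female 3, was also the one with the most of a second coding transcript, ENSMUST00000113136.8 (3736 bases), at 11.2 TPM. That transcript varied from 0.10 to 11.2 TPM over the 5 Q84 libraries and from 0 to 0.85 TPM over the 5 WT libraries. Kallisto, named in the submitters' processing notes, divides reads between such overlapping transcripts by likelihood, so their split is less certain than their sum.

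The Gprasp and Armcx family is a cluster of related X-linked genes. Of 9 tested genes other than Gprasp2, 2 rose, against 1.52% of all genes, none fell and 7 did not pass. Gprasp1, its closest relative with the same role in receptor sorting, had 608 ± 31.1 CPM in Q84 and 382 ± 37.5 CPM in WT (log2 fold change 0.69, SE 0.08, edgeR adjusted p = 0.000447). It was at 410 CPM in Q84 female 5 and 497 CPM in WT female 2, and it passed in all 10 fits that drop a library. Bhlhb9, also called Gprasp3, had 106 ± 7.02 CPM in Q84 and 79.6 ± 10.7 CPM in WT (0.43, SE 0.10, edgeR adjusted p = 0.0301). That call held only in the fits without Q84 male 1 or WT male 1, among the 10 that leave out a library, and the adjusted p reached 0.122 in the others. Of the 31-base words of Gprasp2 transcripts, 10.4% also occur in Gprasp1, so part of their reads can be divided between the pair. How far this makes their levels uncertain was not measured. Within Gprasp1 the difference lay in 1 transcript, ENSMUST00000166554.2 (4993 bases), at 131.4 ± 12.4 TPM in Q84 and 70.5 ± 11.5 TPM in WT. A second, ENSMUST00000113145.8 (5640 bases), had 18.2 ± 3.47 TPM in Q84 and 21.3 ± 1.71 TPM in WT.

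The profiles nearest to Gprasp2 were those of Mgat4c (0.14), Cpsf2 (0.14), Epha3 (0.15), Atxn3 (0.19) and Cntn6 (0.19), with a median over all genes of 0.57. Mgat4c, a glycosyltransferase gene, had 21.5 ± 2.22 CPM in Q84 and 10.3 ± 0.89 CPM in WT. Epha3, which encodes an ephrin receptor, had 6.37 ± 0.26 CPM in Q84 and 3.05 ± 0.36 CPM in WT. Cntn6, a neural adhesion gene, had 21.6 ± 1.43 CPM in Q84 and 12.2 ± 1.44 CPM in WT. Summed over its transcripts, Atxn3 had 98.9 ± 7.99 CPM in Q84 and 57.3 ± 3.48 CPM in WT. Its transcript ENSMUST00000021606.12 (5363 bases) had 14.9 ± 1.33 TPM in Q84 and 15.4 ± 0.541 TPM in WT. The Atxn3 transcript of 1000 bases, to which transgene reads can be assigned, had 71.4 ± 6.14 TPM in Q84 and 0.110 ± 0.151 TPM in WT. Cpsf2, which lies beside Atxn3 on chromosome 12 and encodes an mRNA cleavage factor, had 185 ± 5.23 CPM in Q84 and 103 ± 6.14 CPM in WT. All 5 lay between the group means in WT female 2, at 39.8% to 70.7% of the way from the mean of the 5 WT to that of the 5 Q84 libraries, and below the WT mean in Q84 female 5.

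Grxcr2 (ENSMUSG00000073574, chromosome 18) encodes a cysteine-rich protein with a glutaredoxin-like region that is needed for the stereocilia of inner ear hair cells in mice. It had 12.2 CPM in Q84 male 1, 10.2, 13.1, 11.1 and 12.2 CPM in Q84 females 1 to 4 and 2.43 CPM in Q84 female 5. The WT levels were 3.99, 4.70 and 4.82 CPM in males 1 to 3, 3.58 and 2.57 CPM in females 1 and 3 and 6.61 CPM in female 2. The 5 Q84 libraries were all above 10 CPM, Q84 female 5 was the lowest of all 12, and WT female 2 was the highest WT library. Fitted on the log2 scale, the difference was 1.74 (SE 0.16) in the 10 libraries and 1.27 (SE 0.37) in the 12.

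No other gene of the stereocilia list passed (0 of 8 tested, edgeR, 10 libraries). At an unadjusted p under 0.05 there were 4, and DESeq2 called 1 and limma-voom 0. The smallest p-values belonged to Ripor2 and Grxcr1, 2 genes also required for hair cell stereocilia. Ripor2 had 6.41 ± 0.44 CPM in Q84 and 4.98 ± 0.81 CPM in WT (log2 fold change 0.41, SE 0.14, edgeR adjusted p = 0.116). Grxcr1, the relative of Grxcr2, was low, at 0.227 ± 0.0802 CPM in Q84 and 0.424 ± 0.249 CPM in WT (-1.17, SE 0.41, edgeR adjusted p = 0.127).

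Olfm3 (ENSMUSG00000027965, chromosome 3), also called optimedin, encodes a secreted olfactomedin glycoprotein of brain and retina that can bind latrophilin receptors. It had 23.0 CPM in Q84 male 1, 24.4, 32.3, 29.5 and 28.7 CPM in Q84 females 1 to 4 and 9.93 CPM in Q84 female 5. Among WT libraries, males 1 to 3 had 16.9, 13.8 and 11.3 CPM, females 1 and 3 had 9.35 and 7.47 CPM, and female 2 had 20.2 CPM. The WT libraries were spread widely, with a coefficient of variation of 31.6% over the 5, but none reached the lowest of the 5 Q84 libraries. Its log2 fold change was 1.41 (SE 0.22) in the 10 libraries, 1.77 without Q84 male 1, and 0.93 (SE 0.33) in the 12.

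Among 11 other olfactomedin and latrophilin genes tested, none rose, 2 fell, against 4.93% of all genes, and 9 did not pass. The median log2 fold change of the 11 was 0.12. Olfm1, a secreted relative abundant in neurons, had 63.3 ± 6.89 CPM in Q84 and 96.0 ± 10.6 CPM in WT (log2 fold change -0.61, SE 0.11, edgeR adjusted p = 0.00459). Myoc, which encodes myocilin, had 9.37 ± 1.95 CPM in Q84 and 15.5 ± 4.28 CPM in WT (-0.87, SE 0.16, edgeR adjusted p = 0.00762). Both passed in all 10 fits that drop a library. In Q84 female 5 Olfm1 was at 113 CPM, above all 5 WT libraries.

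Vwde (ENSMUSG00000079679, chromosome 6) encodes a large protein with von Willebrand factor D and EGF domains that has been linked to limb regeneration in the axolotl. It was the least abundant of the 10 per transcript length, and it had 3.59 CPM in Q84 male 1, 3.41, 3.40, 4.17 and 3.25 CPM in Q84 females 1 to 4 and 1.08 CPM in Q84 female 5. Its level in WT was 0.758, 1.28 and 1.54 CPM in males 1 to 3, 1.24 and 1.93 CPM in females 1 and 3 and 2.33 CPM in female 2. The groups of 5 did not overlap. Q84 female 5 was within the range of the 5 WT libraries, and WT female 2 was above it. As a log2 fold change, the difference was 1.33 (SE 0.22) in the 10 libraries and 1.00 (SE 0.32) in the 12.

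Ptpro (ENSMUSG00000030223, chromosome 6) encodes a receptor-type tyrosine phosphatase known from kidney podocytes and, in the chick, from axon guidance. It had 14.8 CPM in Q84 male 1, 13.3, 12.4, 14.2 and 12.6 CPM in Q84 females 1 to 4 and 10.8 CPM in Q84 female 5. In WT libraries, males 1 to 3 had 4.77, 5.68 and 8.21 CPM, females 1 and 3 had 5.88 and 5.98 CPM, and female 2 had 10.5 CPM. The 2 groups as labelled stayed apart by a narrow margin, because both doubted libraries lay between the groups of 5. The log2 fold change was 1.18 (SE 0.15) in the 10 libraries and 0.90 (SE 0.18) in the 12. Of 17 other receptor-type phosphatases tested, 1 rose, against 1.52% of all genes, none fell and 16 did not pass. Ptprd, a synaptic adhesion phosphatase, had 30.0 ± 3.98 CPM in Q84 and 23.0 ± 3.19 CPM in WT (0.46, SE 0.13, edgeR adjusted p = 0.0485). Its call held only without Q84 female 1, WT male 1 or WT male 2, among the 10 fits that leave out a library, and the adjusted p reached 0.213 in the others.

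Mstn (ENSMUSG00000026100, chromosome 1) encodes myostatin, a secreted member of the TGF-beta family that limits muscle growth. It had 4.28 CPM in Q84 male 1, 3.97, 2.00, 2.38 and 1.86 CPM in Q84 females 1 to 4 and 1.30 CPM in Q84 female 5. The WT libraries had 2.42, 1.75 and 1.43 CPM in males 1 to 3, 1.26 and 1.01 CPM in females 1 and 3 and 2.71 CPM in female 2. Q84 male 1 and Q84 female 1 stood well above the rest and the other 3 of the group of 5 overlapped the WT range. Fitted on the log2 scale, the difference was 1.18 (SE 0.25) in the 10 libraries and 0.69 (SE 0.32) in the 12, and the fold of mean CPM in the 10 was 1.84. Its promoter printed above is the one with a TATA box.

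Skeletal muscle RNA differed widely between libraries and was highest where Mstn was highest. The summed TPM of 12 muscle markers, led by Mylpf, was 1974 in Q84 male 1, 1086, 7.45, 7.99 and 62.3 in Q84 females 1 to 4 and 268 in Q84 female 5. In WT libraries it was 530, 6.88 and 28.7 in males 1 to 3, 134 and 33.0 in females 1 and 3, and 810 in female 2. The 4 libraries with the most muscle marker RNA, Q84 male 1, Q84 female 1, WT female 2 and WT male 1, were also the 4 with the most Mstn. The median log2 fold change of the 12 markers was 2.37, and none passed (edgeR, DESeq2 and limma-voom, 10 libraries), with 0 at an unadjusted p under 0.05. With a muscle sum under 8 TPM, Q84 females 2 and 3 had Mstn at 2.00 and 2.38 CPM and WT male 2 at 1.75 CPM. The SD of Mstn over the 5 WT libraries was 0.54 CPM. Q84 female 4 had Mstn at 1.86 CPM with a muscle sum of 62.3 TPM, and Q84 female 5 at 1.30 CPM with 268 TPM. The part of muscle RNA in the Mstn difference was not tested.

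**Figure D3:**
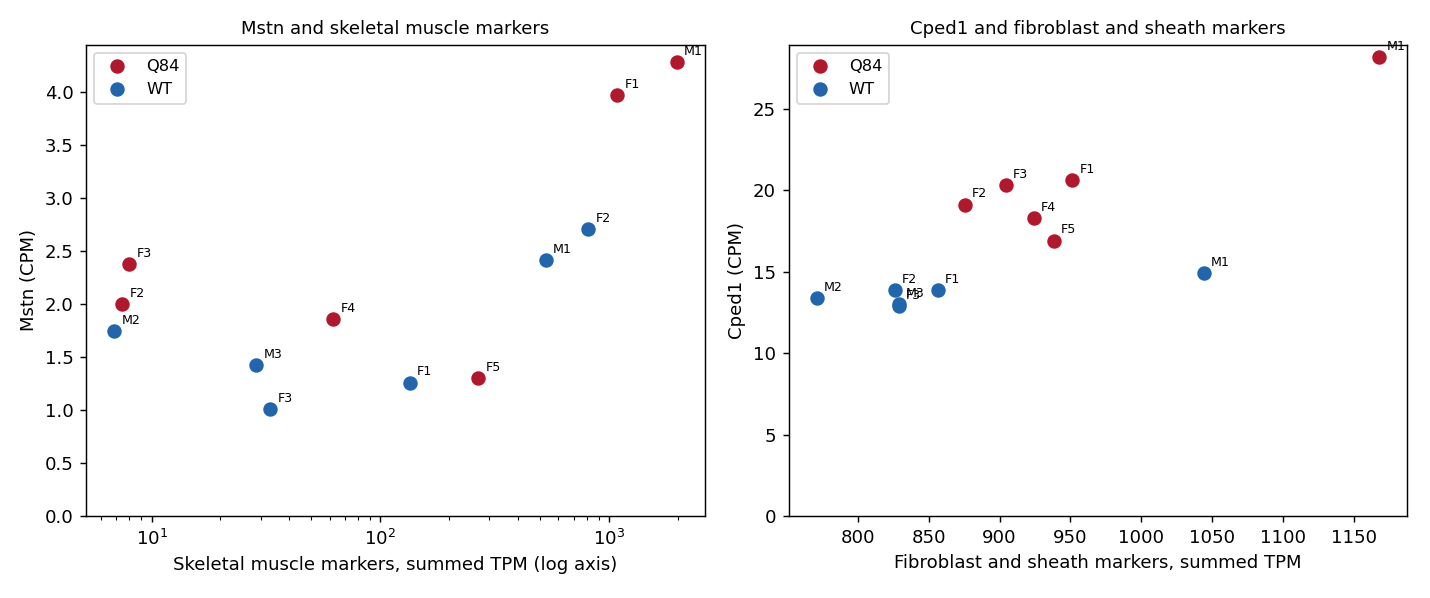
Left, Mstn in CPM against the summed TPM of 12 skeletal muscle markers (log axis); right, Cped1 in CPM against the summed TPM of 10 fibroblast and sheath markers, with Q84 libraries in red and WT libraries in blue, 1 point per library (M, male; F, female). The 2 highest Mstn values, 4.28 and 3.97 CPM, belong to the libraries with the 2 highest muscle sums, and Q84 male 1 is the highest on both axes of both panels.

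Of 21 other genes of myostatin and activin signalling tested, none rose, 1 fell, against 4.93% of all genes, and 20 did not pass. Inhbb, which encodes the beta B subunit of activins and inhibins, had 1.33 ± 0.23 CPM in Q84 and 2.05 ± 0.28 CPM in WT (log2 fold change -0.73, SE 0.17, edgeR adjusted p = 0.0283). The call was lost on dropping Q84 male 1, Q84 female 1, Q84 female 2, WT male 2, WT female 1 or WT female 3 (adjusted p up to 0.128). Acvr2b, the main receptor of myostatin, had 0.950 ± 0.121 CPM in Q84 and 1.07 ± 0.224 CPM in WT (-0.23, SE 0.21, edgeR adjusted p = 0.602). Acvr2a, a related receptor gene on this list, was more abundant, at 68.6 ± 3.60 CPM in Q84 and 58.7 ± 4.38 CPM in WT. Its log2 fold change was 0.26 (SE 0.08, edgeR unadjusted p = 0.0049, adjusted p = 0.0652).

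Marcks (ENSMUSG00000069662, chromosome 10) encodes a protein kinase C substrate that binds the inner face of the plasma membrane and actin and is abundant in growing axons. It had 51.9 CPM in Q84 male 1, 46.8, 63.6, 70.0 and 63.3 CPM in Q84 females 1 to 4 and 71.2 CPM in Q84 female 5. WT males 1 to 3 had 33.6, 30.2 and 30.5 CPM, WT females 1 and 3 had 39.1 and 29.8 CPM, and WT female 2 had 44.9 CPM. The library labelled Q84 female 5 was the highest of all, and WT female 2 was the highest of WT, so the groups stayed apart as labelled. Its log2 fold change was 0.79 (SE 0.13) in the 10 libraries and 0.73 (SE 0.12) in the 12.

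Of 10 other genes listed with Marcks, none rose, 3 fell, against 4.93% of all genes, and 7 did not pass. The 3 that fell encode protein kinase C isoforms, the enzymes known to phosphorylate Marcks. Prkca had 145 ± 17.4 CPM in Q84 and 240 ± 36.7 CPM in WT (log2 fold change -0.71, SE 0.12, edgeR adjusted p = 0.00487). Prkcb had 35.3 ± 4.29 CPM in Q84 and 49.6 ± 2.7 CPM in WT (-0.51, SE 0.10, edgeR adjusted p = 0.00922), a call lost without Q84 male 1 (adjusted p = 0.0725). Prkcd had 143 ± 18 CPM in Q84 and 251 ± 59.7 CPM in WT (-0.82, SE 0.19, edgeR adjusted p = 0.0267), and its call held only without Q84 female 1, WT male 1 or WT male 3 (adjusted p up to 0.114 in the others). In Q84 female 5 Prkca was at 360 CPM, above all 5 WT libraries, where Marcks was also at its highest. The relative Marcksl1 had 5.17 ± 0.63 CPM in Q84 and 5.00 ± 0.69 CPM in WT, with overlapping groups.

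Bicc1 (ENSMUSG00000014329, chromosome 10) encodes an RNA-binding protein whose loss gives cystic kidneys in mice. It had 13.6 CPM in Q84 male 1, 11.9, 14.0, 13.3 and 13.3 CPM in Q84 females 1 to 4 and 13.9 CPM in Q84 female 5. WT males 1 to 3 had 9.51, 9.05 and 8.19 CPM, WT females 1 and 3 had 10.4 and 8.33 CPM, and WT female 2 had 9.23 CPM. Both doubted libraries lay within the range of the group of their label. As a log2 fold change, the difference was 0.53 (SE 0.11) in the 10 libraries and 0.54 (SE 0.09) in the 12. None of 10 listed partners and targets passed (edgeR, 10 libraries), 1 had an unadjusted p under 0.05, DESeq2 called 1 and limma-voom 0. Those of smallest p were Pkd2, a cilium channel gene (0.29, SE 0.09, edgeR adjusted p = 0.0830), and Invs, which encodes inversin (0.24, SE 0.11, edgeR adjusted p = 0.263). Of its 31-base words, 3.93% also occur in 4930533K18Rik, and how far this makes its level uncertain was not measured.

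Cped1 (ENSMUSG00000062980, chromosome 6) encodes a protein with a cadherin-like domain whose role is poorly known. It had 28.2 CPM in Q84 male 1, 20.6, 19.1, 20.3 and 18.3 CPM in Q84 females 1 to 4 and 16.9 CPM in Q84 female 5. WT males 1 to 3 had 14.9, 13.4 and 13.0 CPM, WT females 1 and 3 had 13.9 and 12.9 CPM, and WT female 2 had 13.9 CPM. The Q84 male stood above all other libraries, and the groups did not overlap with or without the doubted libraries. The log2 fold change was 0.73 (SE 0.11) in the 10 libraries, 0.55 without Q84 male 1, and 0.65 (SE 0.10) in the 12. Of its 31-base words, 13.4% also occur in Gm26719, of which no transcript was found among those listed in the deposited data.

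The summed TPM of 10 fibroblast and sheath markers, led by Dcn, was 875 to 1168 in Q84 and 771 to 1044 in WT, with Q84 male 1 the highest, as for Cped1. Of those 10 markers 1 rose and 9 did not pass in the 10 libraries (edgeR), and 1.52% of all genes rose. Their median log2 fold change was 0.37. At an unadjusted p under 0.05 there were 4 (edgeR), and DESeq2 called 2 and limma-voom 1. Pdgfra, a fibroblast receptor gene, had 22.7 ± 3.25 CPM in Q84 and 15.3 ± 0.39 CPM in WT (log2 fold change 0.61, SE 0.10, edgeR adjusted p = 0.00303), a call lost without Q84 male 1 (0.47, adjusted p = 0.0587). Adipocyte markers, led by Fabp4, summed to 8.08 to 152 TPM in Q84 and 6.56 to 20.9 TPM in WT, and Q84 male 1 was again the highest. The median log2 fold change of the 7 adipocyte markers in the 10 libraries was 1.70, and 4 had an unadjusted p under 0.05. Of the 7, 1 rose, Retn, which encodes resistin (log2 fold change 2.25, SE 0.59, edgeR adjusted p = 0.0461), a call lost in 8 of the 10 fits that drop a library (adjusted p up to 0.493). Endothelial and mural markers, led by Rgs5, summed to 83.1 to 199 TPM in Q84 and 156 to 226 TPM in WT. Without the doubted libraries the groups did not overlap, at 83.1 to 140 TPM in Q84 and 168 to 226 TPM in WT. Rgs5 weighs most in this sum, with a mean of 98.6 TPM over the 12 libraries. Of these 8 markers, 1 rose, 1 fell and 6 did not pass in the 10 libraries. Their median log2 fold change was 0.47, and 5 had an unadjusted p under 0.05 (edgeR). Rgs5, a pericyte gene, had 147 ± 7.72 CPM in Q84 and 381 ± 74.4 CPM in WT (log2 fold change -1.38, SE 0.13, edgeR adjusted p = 7.99e-05), and it passed in all 10 fits that drop a library. Abcc9, a potassium channel subunit gene of mural cells, had 6.90 ± 2.55 CPM in Q84 and 4.41 ± 0.91 CPM in WT (0.85, SE 0.19, edgeR adjusted p = 0.0182), a call lost without Q84 male 1 or WT female 3 (adjusted p up to 0.186). The part of these cell types in the levels of Cped1 and the other genes was not tested.

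The 2 libraries that went against their label split the 10 genes into unlike patterns. Place was measured as the share of the way from the mean of the 5 WT libraries (0%) to that of the 5 Q84 libraries (100%) on the CPM scale. In Q84 female 5, Nell1 (-6.52%), Gprasp2 (-3.18%), Grxcr2 (-19.2%), Olfm3 (-11.6%), Vwde (-12.2%) and Mstn (-20.3%) lay at or below the WT mean. Marcks (146%) and Bicc1 (117%) lay above the Q84 mean in the same library, and Ptpro (63.3%) and Cped1 (42.9%) lay between. In WT female 2, Nell1 was at 80.3%, Mstn at 85.5%, Ptpro at 60.4%, Olfm3 at 53.2%, Gprasp2 at 47.8%, Marcks at 46.5%, Vwde at 44.4% and Grxcr2 at 34.3%. Bicc1 (3.18%) and Cped1 (3.63%) were at the WT mean there. The Atxn3 transcript of 1000 bases was itself at 47.5% in WT female 2. Bicc1 and Cped1 thus followed the label in WT female 2, whereas 8 genes lay above all 5 WT libraries.

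**Figure D4:**
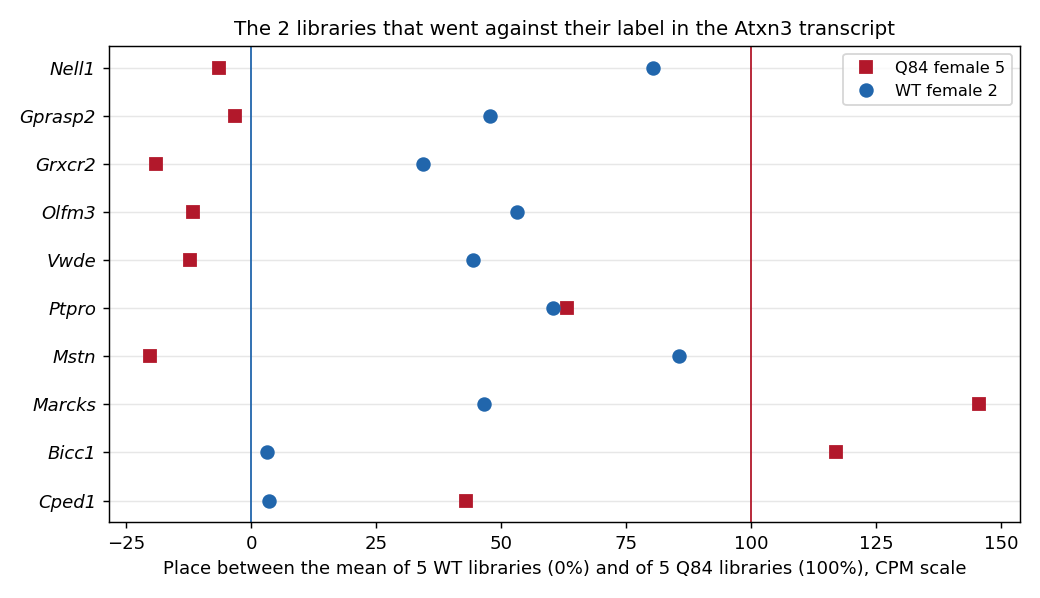
Place of the libraries labelled Q84 female 5 (red squares) and WT female 2 (blue circles) for each of the 10 genes, in percent of the way from the mean of 5 WT libraries (0%, blue line) to the mean of 5 Q84 libraries (100%, red line) on the CPM scale. Nell1, Gprasp2, Grxcr2, Olfm3, Vwde and Mstn sit left of 0% in Q84 female 5, and Marcks and Bicc1 sit right of 100%.

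Over the 8 family and pathway lists together, 93 genes other than the 10 were tested in the 10 libraries. Of these 4 rose and 6 fell, or 10.8%, against 6.45% of all genes, with 4.30% rising against 1.52% and 6.45% falling against 4.93%. The median log2 fold change of the 93 genes was 0.08. With all 12 libraries none of them passed (edgeR), 18 had an unadjusted p under 0.05, DESeq2 called 5 and limma-voom 0, and 0.0053% of all genes were called. The count of rises was 9 without WT male 1 and 2 without Q84 male 1, Q84 female 2, 3 or 4, or WT female 3, and the count of falls was 3 without Q84 male 1.

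**Figure D5:**
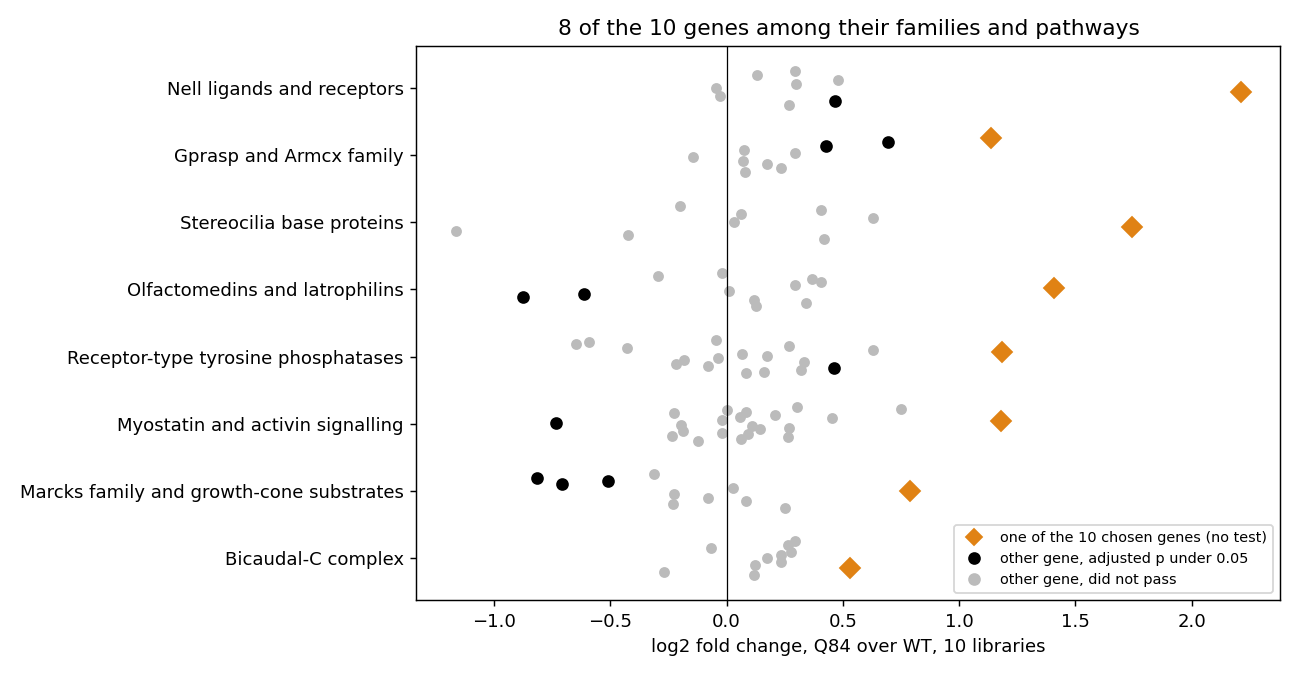
Fitted log2 fold change, Q84 over WT in the 10 libraries, of 8 of the 10 genes (orange diamonds, no test; Vwde and Cped1 have no list) and the other tested genes of their 8 family and pathway lists (black, adjusted p under 0.05; grey, did not pass). Each diamond lies right of every black and grey point on their own list, with Bicc1 at 0.53 the nearest to its list.

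Genes beside the 10 on their chromosomes moved in both directions. The 10 nearest tested genes on each side of each member numbered 200 in all. Of these 11 rose and 13 fell in the 10 libraries (edgeR), or 12%, against 6.45% of all genes. By direction, 1.52% of all genes rose and 4.93% fell, so the rises stood further above their share than the falls. Gprasp1 and Bhlhb9, both among these rises, are also counted in the family lists. Without WT female 3 the rises were 2 and the falls 6, and on dropping Q84 male 1, Q84 female 2 or 3, WT male 2 or 3, or WT female 1 the rises were 6 or 7. The neighbours that passed with each library left out in turn were Gprasp1, Kctd16, Vav3, Tes, Mfsd4b1, Slc16a9, Kcnd2 and Cadps2, and the other 16 lost their call in 1 to 9 of those fits.

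Around Nell1, E2f8 (log2 fold change 1.08) and Siglech (0.79) rose and Prmt3 (-0.29) fell. Around Gprasp2 it was Gprasp1 (0.69), Bhlhb9 (0.43) and Tceal5 (0.49) that rose. Around Grxcr2, Pou4f3, a transcription factor gene of sensory neurons and hair cells, rose (0.49), and Fgf1 (-0.47), Arhgap26 (-0.67) and Kctd16 (-0.65) fell. Vav3 (-0.59) and Ntng1 (-0.48) fell near Olfm3. Tes, which encodes testin of focal adhesions, fell near Vwde, with 5.83 ± 0.55 CPM in Q84 and 14.7 ± 0.36 CPM in WT (log2 fold change -1.34, SE 0.10).

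Beside Ptpro, Mgst1 (0.54) and Lmo3 (0.90) rose and Slc15a5 (-0.97) fell. Dnah7a (-0.82) fell near Mstn and Mfsd4b1 (-1.22) near Marcks. Near Bicc1, Cabcoco1 (1.2) rose while Slc16a9 (-0.65) and Cisd1 (-0.30) fell. Cped1 had neighbours with large changes in both directions. Kcnd2, a voltage-gated potassium channel gene, had 3.54 ± 0.39 CPM in Q84 and 1.67 ± 0.21 CPM in WT (log2 fold change 1.08, SE 0.16, edgeR adjusted p = 0.00174). Cadps2, a gene of dense-core vesicle release, had 27.9 ± 1.18 CPM in Q84 and 58.6 ± 5.63 CPM in WT (-1.12, SE 0.08). Aass (0.80) also rose there.

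Sex was not used to choose the 10 genes and was tested, but males were fewer in Q84 than in WT. The fitted sex and genotype differences are therefore not independent, and the choice on genotype can carry into the sex values. None was called between male and female libraries (edgeR, 12 libraries, genotype in the model), none had an unadjusted p under 0.05, and 0.0636% of all genes were called. DESeq2 and limma-voom called none either, with 2 and 0 at an unadjusted p under 0.05. The log2 fold changes, male over female, ran from -0.36 (SE 0.53) for Nell1 to 0.45 (SE 0.33) for Mstn. The smallest unadjusted p was 0.056 (edgeR) for Marcks (-0.27, SE 0.13) and for Cped1 (0.23, SE 0.11). In the 10 libraries none was called and 3 had an unadjusted p under 0.05, Grxcr2 (0.35), Mstn (0.73) and Cped1 (0.24). With 4 male libraries, 1 of them Q84, a sex difference larger than its error could also go uncalled, as for Marcks and Cped1.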

How the data were processed

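Per the file headers, the deposited tables hold estimated counts and TPM for 116313 transcripts in each of 12 libraries, in the columns kallisto writes. The submitters' processing notes name kallisto 0.46.2, STAR 2.7.10b and GRCm39 without their roles, and no source used here gives the transcript release. Per the labels' protocols, RNA was extracted with TRIzol and a Qiagen RNeasy Plus kit, and libraries were made by poly(A) selection with NEBNext kits.

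Transcripts were assigned to genes in GENCODE M21 (an annotation of GRCm38, used for names and gene order; 98.3% matched, and the rest held 0.751 to 0.804% of counts and were left out). Estimated counts were summed per gene, rounded, filtered with filterByExpr, scaled with TMM and tested with the robust quasi-likelihood test of edgeR 4.0.16, with sex and genotype in the model, Benjamini-Hochberg adjustment over all genes and a threshold of 0.05. Log2 fold changes are from these fits. Promoters came from RefSeq on GRCm38.p6.

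The 10 genes, the lists, the libraries left out and the tests were chosen with earlier results of these data known. Named genes were the 10, each pathway list's called genes (or the 2 of smallest p), called neighbours, the 5 nearest profiles of Nell1 and Gprasp2, near copies, Atxn3 and each list's highest marker. Acvr2b, Acvr2a and the called markers (Pdgfra, Retn, Pou4f1, Nefl, Abcc9) were picked after their values were seen. Alternatives were DESeq2 1.42.0, limma-voom (limma 3.58.1), length-scaled TPM, other filters and scaling, other sets of samples, a replicate block and leaving out each library.

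In simulated counts every Q84 library carried the change, and changes were put only into genes with a mean above 1 CPM. The shares found therefore do not cover genes of lower level. In the design of 10 libraries, 46% of 1.5-fold, 74% of 2-fold, 96% of 4-fold and 98% of 8-fold changes were found (18721 genes, 170 calls of which 13 were false). In that of 12 libraries these shares were 38%, 80%, 100% and 100% (18875 genes, 172 calls of which 13 were false).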

Additional observations from a re-analysis of the deposited data

Results flagged for a closer look

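Of 40 groups of levels looked at (the 10 genes, in Q84 and in WT, with and without the 2 doubted libraries), 9 held a library set apart from the rest of its group by a gap large for its size, and chance flags about 1 in 20, or 5%. The genes were chosen on the same contrast with the 2 doubted libraries known, and groups with and without them share libraries. The 9 therefore cannot be compared with that 5%. In the Q84 group of 6, the library labelled Q84 female 5 was set apart low for Nell1 (3.48 CPM), Gprasp2 (95.8 CPM), Grxcr2 (2.43 CPM) and Vwde (1.08 CPM). In the WT group of 6, the library labelled WT female 2 was set apart high for Nell1 (17.2 CPM) and Gprasp2 (155 CPM). These are the libraries that went against their label in the Atxn3 transcript of 1000 bases.

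Q84 male 1 was set apart high for Cped1 (28.2 CPM), in the Q84 group of 6 and again in the group of 5. Q84 female 1 was set apart low for Bicc1 (11.9 CPM) in the Q84 group of 6.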

How the results depend on the processing

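The counts of genes called depended strongly on the libraries. With the 12 libraries as labelled, the main test called 1 gene. DESeq2 called 620, library totals 15, no filter on low counts 15, no sex term 193 and the female libraries 0, and leaving out 1 library gave 0 to 1082, the highest without Q84 female 5. The 10 libraries gave 1208 calls, 1934 with DESeq2 and 681 to 1978 with 1 library left out. The count was 681 without Q84 male 1, 739 without WT female 3 and 1978 without WT male 1. Pathway genes that rose numbered 4, 9 with DESeq2 and 2 to 9 with 1 library left out, and those that fell 6, with 3 to 9. Neighbours that rose numbered 11, with 2 to 16, and those that fell 13, with 8 in the female libraries and 6 to 16. The count of the 10 genes called for sex was 0 in each of these alternatives that was run (0 to 0 with 1 library left out).

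Whether the replicate numbers shared by the groups pair the libraries was not settled. The correlations of same-numbered libraries' deviations ran from -0.19 to 0.31, and those of differently numbered libraries were not set beside them. With a replicate block the counts were 639 (12 libraries), 701 (10 libraries), 1 pathway gene higher, and 3 higher and 7 lower neighbours, and 0 of the 10 genes for sex. Q84 female 4 and Q84 female 5 share their replicate number with no other library, so the block fits each of them fully. In these fits they added nothing to the genotype difference, the former in both sets and the latter in the 12 libraries.

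No refitted fold change of Q84 over WT changed its direction. The fold changes of male over female, none called, changed sign for Nell1 (-0.36 in the 12 libraries and 0.11 in the 10), Gprasp2 (-0.06 and 0.04) and Ptpro (-0.08 and 0.11). Of 420 refitted fold changes of the 10 genes 406 moved by less than the spread between replicates and 14 by more. The log2 fold of mean level of Gprasp2 was 1.12 on CPM and 1.02 on TPM. Over the refitted values of the 10 genes and the other named genes together, 982 stayed the same and 14 moved. The remaining 181, all of the other named genes, lost their call.

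Errors rest on 5 or 6 libraries a group, and for sex on 4 male and 8 female libraries, or fewer where libraries were left out. At these depths a level of 1 CPM is well above a few reads, so spread between libraries, not counting, limits most values.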
